A study of Mus musculus with 2 samples.

Results

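The genes described here act in the uptake of shed photoreceptor outer segments. They include the receptor tyrosine kinases Mertk, Tyro3 and Axl, and Gas6 and Pros1, ligands within this kinase family. The others are the integrin subunits Itgav and Itgb5 with their ligand Mfge8, the scavenger receptor Cd36, and Tub. The genes were chosen by name as a known pathway, with earlier results of these data known. All 10 were found by symbol among the 32285 features of the expression matrix. Rods and cones renew their outer segments each day, and the retinal pigment epithelium (RPE), the pigmented layer behind them, binds and ingests the shed tips. In the accepted scheme the integrin of Itgav and Itgb5 binds the tips through Mfge8, and MerTK, engaged through Gas6 or protein S (Pros1), drives ingestion. Both ligands bridge the receptor to phosphatidylserine exposed on the tip, and loss of Mertk leads to retinal degeneration in rats, mice and people.

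The series addresses a mouse model heterozygous for the Prph2C213Y allele (Prph2C213Y/+) on C57BL/6J, with wild-type mice of the same age and sex as its controls and spatial data at 6 months. The expression library named T1 has no genotype or replicate label, so it was placed in no group, no genotype was inferred, and no genotypes were compared. It holds single nuclei from 1 retinal section of 10 µm from 1 eye, prepared with SeekSpace, which reads the transcripts of single nuclei and locates each nucleus on a chip. A second T1 library carries the spatial barcodes.

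The matrix held 17285 barcodes with a position each and no barcode listed more than once. It contained 55843593 UMIs, the unique tags that count captured RNA molecules. The filters kept 16867 nuclei (median 1811 UMIs). They lay in 4 ring-shaped pieces of 4406, 4196, 3695 and 4570 nuclei, although the labels describe 1 section. The pieces have no group and are not replicates, and the values below have no replicate check. Clusters were named from marker lists, so a class called "RPE-like" is a computed one, and 18 classes were named. The label gives retina, but fibroblast-like, skeletal muscle-like, lens-like, adipocyte-like and other nuclei from around the retina were also present. The 4 clusters left unnamed (6, 15, 32 and 35) held 1284 nuclei, or 7.61%.

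The classes at the centre of this pathway were checked against their markers. RPE-like nuclei numbered 660 (median 2938.5 UMIs) and held Rpe65, the isomerase of the visual cycle, at 3026 CPM. CPM (counts per 1e6) is the sum of a gene's UMIs in a class, divided by the UMI total of that class and scaled. No other named class exceeded 8.21 CPM of Rpe65, and the list of 10 RPE markers summed to 28356 CPM, against 285.8 CPM in bipolar-like nuclei, the next class. Best1, a marker of that list, went against it, with 0.822 CPM (3 UMIs) in RPE-like and 6.80 CPM in fibroblast-like nuclei. Müller glia-like nuclei, the radial glia of the retina, numbered 572 and held the 10 Müller glia markers at a sum of 14002 CPM, against 4960.2 CPM in RPE-like nuclei, the next class. They were also the highest class for the 6 astrocyte markers, at 1856 CPM, and their 10 macrophage markers summed to 15.1 CPM, with 6 at 0 and P2ry12 at 12.7 CPM. Rod-like nuclei numbered 5891 (median 1058 UMIs), with the 10 rod markers at 28677 CPM and the 9 cone markers at 64.1 CPM. Cone-like nuclei numbered 644 (median 2479 UMIs), with the cone markers at 8723 CPM and the rod markers at 31501 CPM. How much of any level in cone-like nuclei came from rod transcripts therefore cannot be told. Microglia or macrophage-like nuclei numbered 424 (median 1684 UMIs). They carried all 10 markers of their list, and also immunoglobulin kappa (Igkc) at 940.4 CPM and all 6 lymphocyte markers. Pericyte or smooth muscle-like nuclei (cluster 20) also held 4 vascular endothelium markers at 0.5 or more of the highest level in any cluster. The part of endothelial transcripts in the levels of that class was not tested.

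The promoters of 4 receptor genes are printed because their transcripts had different leading classes: macrophages and RPE for Mertk, RPE for Tyro3 and Itgav, and fibroblasts for Axl. Each window runs from 250 bases before to 50 bases after the start that RefSeq's promoter table uses, build GRCm38.p6, 5′ to 3′ on the strand of the gene. That start is the first base of the annotated gene for Mertk, and lies further into the gene for Tyro3, Axl and Itgav. Capitals mark CG dinucleotides, the bases at which mammalian DNA is methylated.
Mertk (chr2:128698665-128698964, + strand): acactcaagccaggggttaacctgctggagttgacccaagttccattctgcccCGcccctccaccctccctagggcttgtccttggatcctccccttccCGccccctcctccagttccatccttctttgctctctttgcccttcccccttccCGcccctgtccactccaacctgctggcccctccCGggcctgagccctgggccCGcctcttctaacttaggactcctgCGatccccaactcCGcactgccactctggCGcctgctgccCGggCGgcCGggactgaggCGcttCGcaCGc
Tyro3 (chr2:119799264-119799563, + strand): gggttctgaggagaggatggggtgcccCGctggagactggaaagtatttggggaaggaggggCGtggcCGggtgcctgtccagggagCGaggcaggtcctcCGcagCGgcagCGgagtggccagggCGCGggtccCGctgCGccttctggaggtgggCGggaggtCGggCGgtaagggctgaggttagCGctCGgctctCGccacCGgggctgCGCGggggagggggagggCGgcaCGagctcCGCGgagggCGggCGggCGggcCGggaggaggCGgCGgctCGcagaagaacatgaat
Axl (chr7:25788684-25788983, - strand): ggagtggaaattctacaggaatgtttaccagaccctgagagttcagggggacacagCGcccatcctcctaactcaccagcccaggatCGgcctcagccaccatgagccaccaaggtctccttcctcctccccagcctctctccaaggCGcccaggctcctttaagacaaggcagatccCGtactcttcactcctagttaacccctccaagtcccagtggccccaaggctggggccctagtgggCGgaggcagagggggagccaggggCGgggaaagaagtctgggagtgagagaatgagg
Itgav (chr2:83724147-83724446, + strand): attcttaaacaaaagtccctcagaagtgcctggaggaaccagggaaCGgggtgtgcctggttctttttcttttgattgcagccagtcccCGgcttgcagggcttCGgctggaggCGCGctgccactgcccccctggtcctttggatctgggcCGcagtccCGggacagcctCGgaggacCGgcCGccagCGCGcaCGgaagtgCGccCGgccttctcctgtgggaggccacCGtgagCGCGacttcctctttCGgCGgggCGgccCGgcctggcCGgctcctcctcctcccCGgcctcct

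All 10 genes had a window. The Tyro3 window held 31 CG dinucleotides, the Itgav window 24 and the Mertk window 14. The Axl window held 6, against a median of 7 over the 32851 windows of this length in the table. At the ends of the range over the 10 genes stood Tub with 34 and Cd36 with 3. Of 3 motifs searched on both strands, CACGTG (the E-box), CATGTG and TAATCC (the core bound by OTX and CRX factors), none was found in the 10 windows. They were present in 7.15, 14.2 and 7.06% of all windows. This says only that these letters are not within these bases.

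The term class-high is used for a gene whose top class had a lower bound 2 or more times the upper bound in each of the other named classes. Of the 10 genes, 3 were class-high, beside 10.3% of the 18768 genes with at least 20 UMIs. The 10 genes had 673 (Tyro3) to 18129 UMIs (Tub), and UMI counts were not matched in this or later shares over all genes. Tyro3 and Itgav were class-high in RPE-like nuclei, for which the share over all genes was 0.65%, and Axl was class-high in fibroblast-like nuclei. RPE-like nuclei had the highest level of 2 of the 10, Tyro3 and Itgav, beside 4.61% of all genes tested. Macrophage-like nuclei led 3 (Mertk, Gas6 and Pros1), beside 10.1% of all genes tested. Their intervals overlapped those of the next class for Pros1, and for Mertk and Gas6 with each nucleus thinned to 500 UMIs. Fibroblast-like (Axl), horizontal-like (Itgb5), Müller glia-like (Mfge8), vascular endothelium-like (Cd36) and rod-like nuclei (Tub) led 1 each, beside 3.88, 6.36, 5.15, 4.15 and 10.4% of all genes. The median ratio of the highest to the next class was 1.41 for the 10 genes and 1.33 for all genes tested. The class-high count was 1 (Axl alone) without piece 4, with each nucleus thinned to 500 UMIs, and with a ratio of bounds of at least 3, and 2 (Axl and Itgav) without piece 2.

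**Figure D1:**
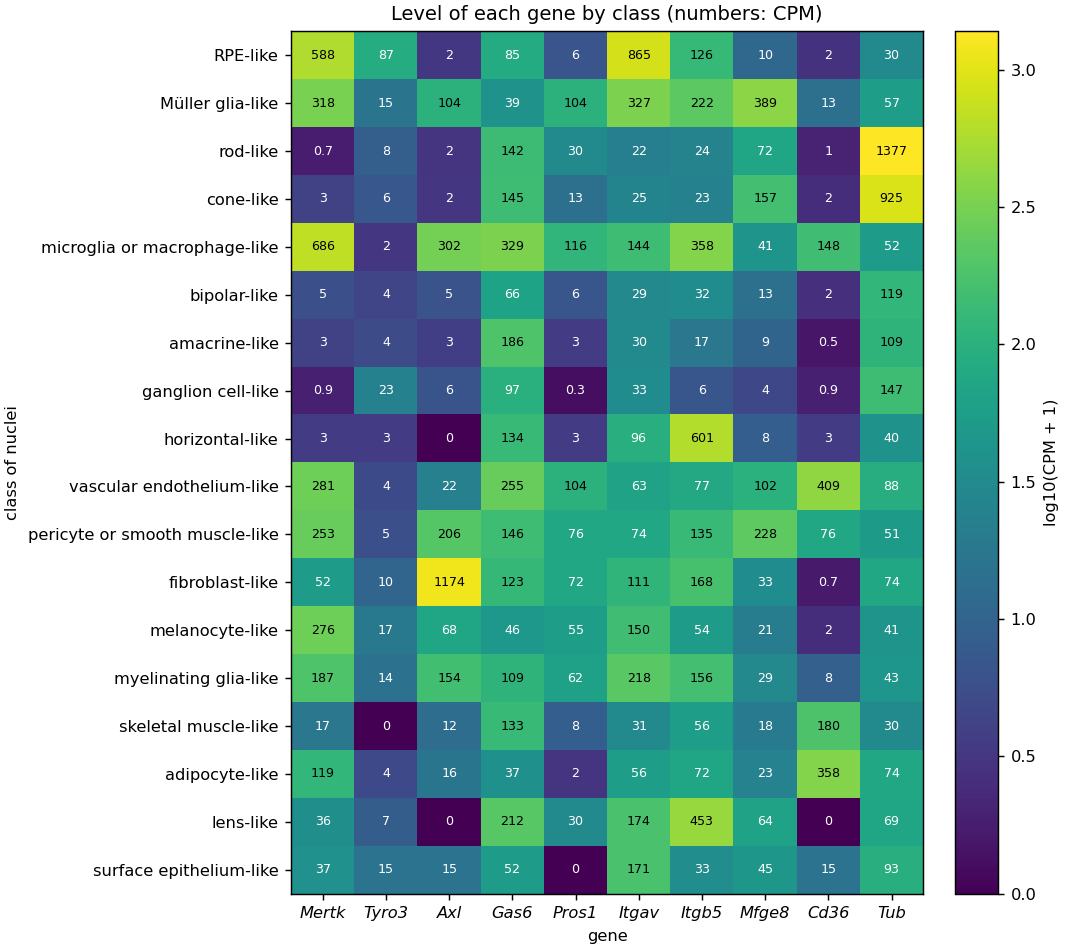
Level of each of the 10 genes (columns) in the 18 named classes (rows), coloured by log10(CPM + 1) with the CPM printed in each field. Mertk stood at 686 CPM in macrophage-like and 588 CPM in RPE-like nuclei, beside 0.717 CPM in rod-like nuclei, while Tub had the reverse pattern with 1377 CPM in rod-like nuclei.

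Mertk, the ingestion receptor, was highest in microglia or macrophage-like nuclei and in RPE-like nuclei. Its level was 686 CPM in macrophage-like nuclei (95% Poisson interval 634 to 741, from 645 UMIs) and 588 CPM in RPE-like nuclei (563 to 613, from 2144 UMIs). These intervals, like all below, cover counting error only. Müller glia-like nuclei followed at 318 CPM (291 to 346). Vascular endothelium-like nuclei at 281 CPM, melanocyte-like at 276 CPM and pericyte or smooth muscle-like at 253 CPM overlapped their neighbours in this order. Myelinating glia-like nuclei stood at 187 CPM and adipocyte-like nuclei at 119 CPM, and 4 further classes outside the neural retina lay between 16.8 and 52.4 CPM.

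Retinal neurons had almost no Mertk. The level was 0.717 CPM in rod-like nuclei (6 UMIs among 5891 nuclei), 3.10 CPM in cone-like nuclei and no more than 4.91 CPM in any neuronal class. A UMI of Mertk was found in 41.5% of macrophage-like nuclei (36.8 to 46.4%, exact binomial 95% interval) and 58.9% of RPE-like nuclei (55.1 to 62.7%). In rod-like nuclei, which should lack the receptor, the share was 0.102%. With each nucleus thinned to 500 UMIs, which left out 28 macrophage-like, 41 RPE-like and 249 rod-like nuclei, the shares were 21.0, 20.5 and 0.0709%. The thinned levels were 566 CPM (466 to 681) in macrophage-like and 549 CPM (470 to 638) in RPE-like nuclei, with overlapping intervals.

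RPE markers were low in macrophage-like nuclei. Rpe65 had 1 UMI in these 424 nuclei, and the 10 RPE markers summed to 58.5 CPM there, against 28356 CPM in RPE-like nuclei. In RPE-like nuclei the 10 macrophage markers summed to 275.5 CPM, against 5770.1 CPM in macrophage-like nuclei. Csf1r made up 269.2 CPM of that sum, 6 others had 1 to 7 UMIs each, and C1qa, Ptprc and Aif1 were at 0. At a finer clustering the class parted into 326 macrophage-like nuclei with all 645 Mertk UMIs (807 CPM) and 98 lymphocyte-like nuclei with 0 UMIs, which allows up to 26.1 CPM. Among the 139 macrophage-like nuclei within the 20 nearest of an RPE-like nucleus, Mertk stood at 989 CPM (883 to 1103), and in the 285 others at 529 CPM (473 to 589). Igkc moved the same way, at 1679 CPM near RPE-like nuclei and 556 CPM elsewhere, and the macrophage receptor gene Mrc1 the other way, at 588 and 956 CPM. The part of cell makeup in this difference was not tested.

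Tissue pieces differed more for RPE-like than for Müller glia-like nuclei. In pieces 1 to 4, Mertk in RPE-like nuclei stood at 472, 657, 534 and 688 CPM. In Müller glia-like nuclei it stood at 331, 305, 310.1 and 321 CPM, all with overlapping intervals. In macrophage-like nuclei it stood at 772, 707, 739.6 and 574 CPM. Macrophage-like nuclei were above RPE-like nuclei in 3 of 4 pieces and below them in piece 4, with overlapping intervals in pieces 2 and 4.

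**Figure D2:**
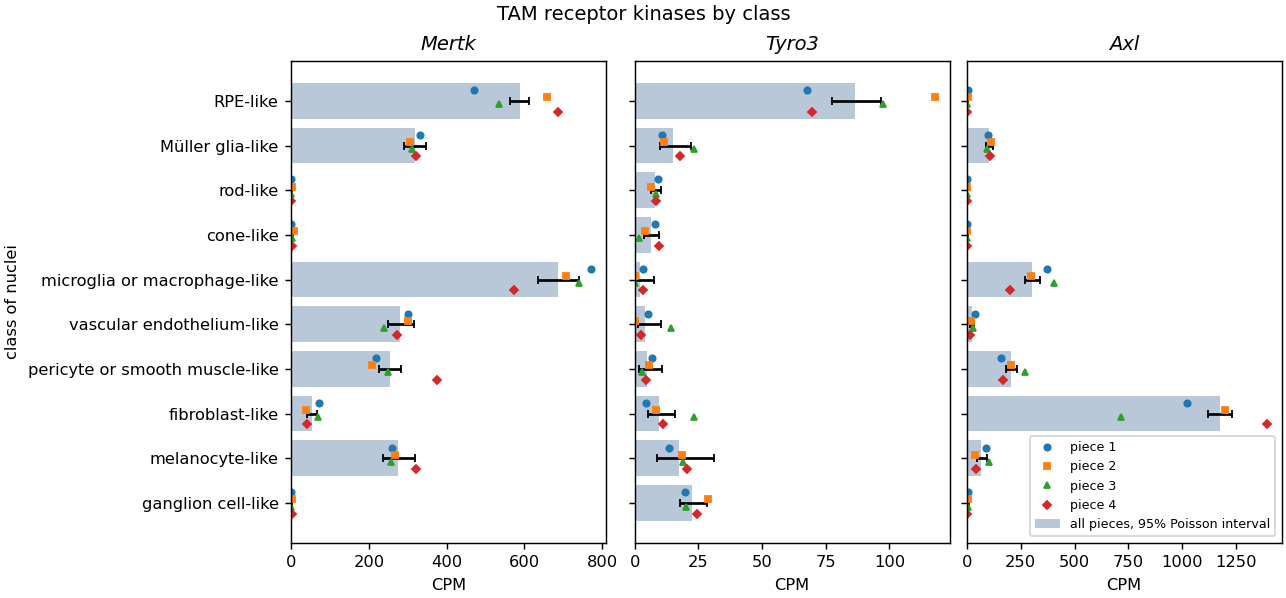
Levels of Mertk, Tyro3 and Axl in CPM (horizontal axes, each on its own scale) in 10 classes; bars are all pieces pooled with exact 95% Poisson intervals, and symbols are the 4 pieces. Mertk was high in RPE-like and macrophage-like nuclei, Tyro3 in RPE-like nuclei (86.6 CPM), and Axl in fibroblast-like nuclei (1174 CPM).

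Tyro3, the second kinase of this family, was highest in RPE-like nuclei at a low level. It stood at 86.6 CPM (77.3 to 96.7, from 316 UMIs) in RPE-like nuclei and at 22.6 CPM (17.9 to 28.3, from 77 UMIs) in ganglion cell-like nuclei, the next class. All other named classes were at or below 17.4 CPM, with intervals that overlapped their neighbours, and skeletal muscle-like nuclei had 0 UMIs. In pieces 1 to 4 the level in RPE-like nuclei was 67.5, 118, 97.3 and 69.5 CPM, above ganglion cell-like nuclei at 19.7, 28.8, 20.2 and 24.5 CPM in each. A UMI was found in 24.7% of RPE-like nuclei, against 1.09% of rod-like nuclei, and in 4.04 and 0.443% after thinning. The class-high call was a narrow one, with a ratio of bounds of 2.03 that was set by 4 UMIs in the 62 surface epithelium-like nuclei.

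Axl, the third kinase, was almost absent from RPE-like nuclei. It had 8 UMIs in RPE-like nuclei (2.19 CPM, 0.947 to 4.32) and 17 in rod-like nuclei (2.03 CPM). Fibroblast-like nuclei held 1174 CPM (1119.6 to 1231), with a UMI in 68.6% of nuclei, against 0.272% in rod-like nuclei and 0.758% in RPE-like nuclei. The next named classes were macrophage-like at 302 CPM, pericyte or smooth muscle-like at 206 CPM, myelinating glia-like at 154 CPM and Müller glia-like nuclei at 104 CPM. The unnamed cluster 6, led by Hs3st3a1, Fbn2 and Ccn2, stood at 403 CPM.

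Fibroblast-like nuclei varied in Axl by cluster and by piece. The level was 1303 CPM in cluster 21 (685 nuclei) and 532 CPM in cluster 22 (144 nuclei). In pieces 1 to 4 it was 1023, 1200.1, 715 and 1391 CPM, in each case above macrophage-like nuclei at 373, 297, 403 and 202 CPM. The fibroblast-like class was the highest for Axl in every piece.

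The integrin subunits had different leading classes. Itgav, the alpha subunit, was highest in RPE-like nuclei at 865 CPM (836 to 896, from 3157 UMIs). Müller glia-like nuclei stood at 327 CPM (299.6 to 355) and myelinating glia-like nuclei at 218 CPM (178 to 263), and none of these 3 intervals overlapped. Lens-like, surface epithelium-like, melanocyte-like and macrophage-like nuclei lay between 144 and 174 CPM. The lowest levels were in neurons and skeletal muscle, from 21.7 CPM in rod-like to 32.6 CPM in ganglion cell-like nuclei, apart from horizontal-like nuclei at 96.0 CPM.

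A UMI of Itgav was found in 75.0% of RPE-like nuclei against 2.73% of rod-like nuclei, and in 31.5 and 0.939% after thinning. Across pieces 1 to 4 RPE-like nuclei held 843, 719.5, 694 and 1159.6 CPM, with piece 4 above the other three beyond counting error. Müller glia-like nuclei held 339.7, 298, 359 and 299.8 CPM. RPE-like nuclei led in every piece.

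Itgb5, the beta subunit, was not led by the RPE. Horizontal-like nuclei, lateral interneurons of the outer retina, had the highest level at 601 CPM (527 to 682), from 238 UMIs in 54 nuclei, 51 of which had a UMI. Lens-like nuclei followed at 453 CPM (408 to 501), macrophage-like at 358 CPM (321 to 399) and Müller glia-like at 222 CPM (199 to 245), each apart from its neighbours. With each nucleus thinned to 500 UMIs, the horizontal-like level was 519 CPM (283 to 870, from 14 UMIs). It then overlapped macrophage-like nuclei at 394 CPM (311 to 492) and lens-like nuclei at 348 CPM (248 to 476), which overlapped each other. RPE-like nuclei stood at rank 8 of 18 with 126 CPM (115 to 138), overlapping pericyte or smooth muscle-like nuclei at 135 CPM. Rod-like nuclei had 24.1 CPM. In pieces 1 to 4 RPE-like nuclei held 111, 140.2, 116 and 139 CPM, against 499.9, 701, 608 and 595 CPM in horizontal-like nuclei, which led in all 4 pieces.

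The RPE-like class joined a pair of clusters that differed in depth and in Mertk. Cluster 31 (361 nuclei, median 5671 UMIs) held Mertk at 649 CPM (621 to 677), and cluster 4 (299 nuclei, median 998 UMIs) at 145 CPM (112 to 185). Rpe65 stood at 3142 CPM in cluster 31 and 2185 CPM in cluster 4. For Itgav the values were 876 CPM (844 to 909) in cluster 31 and 787 CPM (706 to 874) in cluster 4. Tyro3 was 86.4 and 88.4 CPM, and Itgb5 131 and 95.2 CPM, in clusters 31 and 4, with overlapping intervals for both genes.

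Of the 4 receptor genes, Mertk alone had intervals that did not overlap between these clusters. Its difference was present in each piece, with 516, 728, 559.8 and 806 CPM in cluster 31 against 137, 142, 167 and 143 CPM in cluster 4. Gm42418, a transcript sharing sequence with ribosomal RNA, stood at 151289 CPM in cluster 31 and 254968 CPM in cluster 4. The part of depth and of this transcript in the Mertk difference was not tested. A Mertk UMI was found in 92.8% of cluster 31 and 18.1% of cluster 4 nuclei.

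**Figure D3:**
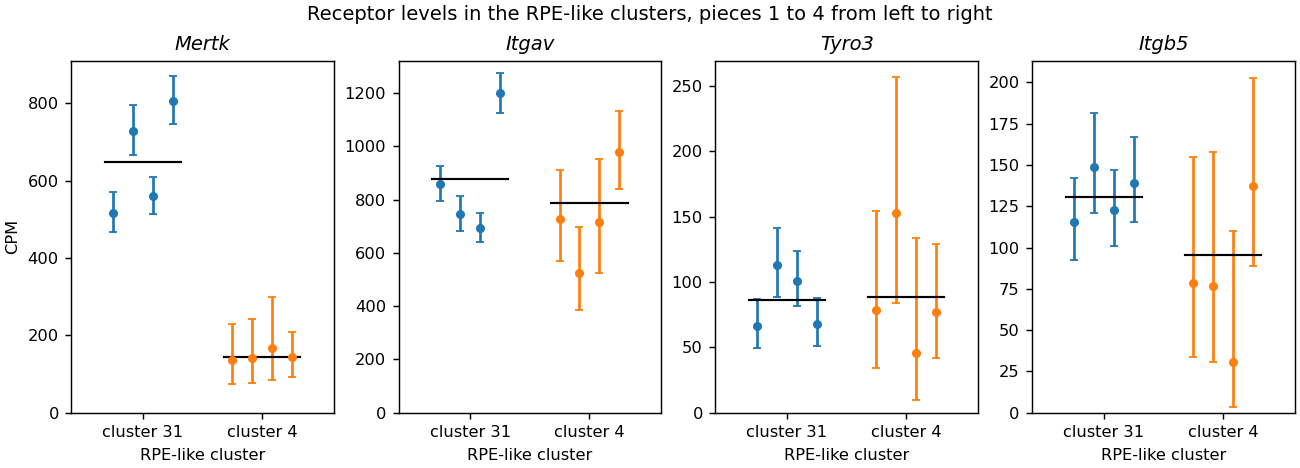
Levels of Mertk, Itgav, Tyro3 and Itgb5 in CPM in the RPE-like clusters 31 and 4; points are pieces 1 to 4 from left to right with exact 95% Poisson intervals, and the black line is the cluster with all pieces pooled. Mertk was lower in cluster 4 in each piece, while the pooled intervals of the clusters overlapped for Itgav, Tyro3 and Itgb5.

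Receptor UMIs were also counted jointly within RPE-like nuclei. Mertk and Itgav were both counted in 345 of 660 nuclei (52.3%), with Mertk in 58.9% and Itgav in 75.0%. In cluster 31 both were counted in 84.8% of nuclei, with Mertk in 92.8% and Itgav in 89.8%. In cluster 4 these shares were 13.0, 18.1 and 57.2%. Joint detection beyond the single shares was not tested. Mertk, Itgav, Tyro3 and Itgb5 were counted together in 86 nuclei (13.0%). None of the 4 was counted in 106 nuclei, 101 of which belonged to the shallower cluster 4.

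Gas6, a ligand of all 3 kinases, was spread over many classes. Macrophage-like nuclei had the highest level at 329 CPM (293 to 367), followed by vascular endothelium-like at 255 CPM (224 to 288), lens-like at 212 CPM and amacrine-like nuclei at 186 CPM (178 to 195). Cone-like nuclei at 145 CPM and rod-like nuclei at 142 CPM (134 to 150.4) overlapped each other and the pericyte, horizontal, skeletal muscle and fibroblast classes. RPE-like nuclei stood lower, at 85.3 CPM (76.0 to 95.3), and Müller glia-like nuclei at 38.6 CPM. A UMI was found in 30.7% of macrophage-like and 26.2% of RPE-like nuclei, and in 16.7% of rod-like nuclei. After thinning these shares were 13.1, 3.72 and 7.20%, so the order of RPE-like and rod-like nuclei followed the CPM only at equal depth.

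Within amacrine-like nuclei, inhibitory interneurons of the inner retina, Gas6 differed between clusters, with 356 CPM (328 to 385) in cluster 11 and 78.3 CPM (56.4 to 105.8) in cluster 30. In bipolar-like clusters it ranged from 13.6 CPM in cluster 24 to 169 CPM in cluster 23. By piece, macrophage-like nuclei held 498, 318, 336 and 174 CPM, and led in pieces 1 to 3, while lens-like nuclei led in piece 4. Gas6 overlaps Tmem255b in the annotation, and reads of both could be counted for either if strand was not used. Tmem255b stood at 97.4 CPM in vascular endothelium-like, 35.6 CPM in rod-like and 3.19 CPM in macrophage-like nuclei.

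Pros1, the gene of protein S, was at a low level. Macrophage-like nuclei at 116 CPM (95.2 to 139.9), Müller glia-like at 104 CPM (88.9 to 121) and vascular endothelium-like nuclei at 104 CPM (84.4 to 126) did not differ beyond counting error. Macrophage-like nuclei led in pieces 1 and 4, Müller glia-like nuclei in piece 2 and vascular endothelium-like nuclei in piece 3. Rod-like nuclei held 30.1 CPM (26.5 to 34.1) and cone-like nuclei 13.3 CPM, above amacrine-like nuclei at 2.57 CPM and ganglion cell-like nuclei with 1 UMI. RPE-like nuclei held 5.76 CPM (3.56 to 8.80). By piece, from 1 to 4, rod-like nuclei held 26.8, 35.9, 42.2 and 20.1 CPM. A UMI was found in 16.7% of macrophage-like and 21.9% of Müller glia-like nuclei, against 3.67% of rod-like nuclei, and in 6.06, 3.93 and 1.28% after thinning.

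Mfge8, a secreted ligand of the integrin, was led by Müller glia. Its level was 389 CPM (359.9 to 421) in Müller glia-like, 228 CPM (202 to 256) in pericyte or smooth muscle-like nuclei. Cone-like nuclei stood at 157 CPM (143 to 171). Vascular endothelium-like nuclei at 102 CPM and rod-like nuclei at 71.9 CPM (66.3 to 77.9) came next, and these 5 levels did not overlap. With each nucleus thinned to 500 UMIs, Müller glia-like nuclei at 329 CPM (265 to 403) overlapped pericyte or smooth muscle-like nuclei at 271 CPM (190 to 375). Cone-like nuclei, at 186 CPM (141 to 240) after thinning, overlapped the pericyte or smooth muscle-like class too. RPE-like nuclei were at 10.1 CPM (7.14 to 14.0), rank 15 of 18. Pieces 1 to 4 gave 435, 358, 367 and 377 CPM in Müller glia-like nuclei and 138, 149, 182 and 165 CPM in cone-like nuclei. A UMI was found in 57.7% of Müller glia-like nuclei against 8.86% of rod-like nuclei, and in 14.6 and 3.31% after thinning.

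**Figure D4:**
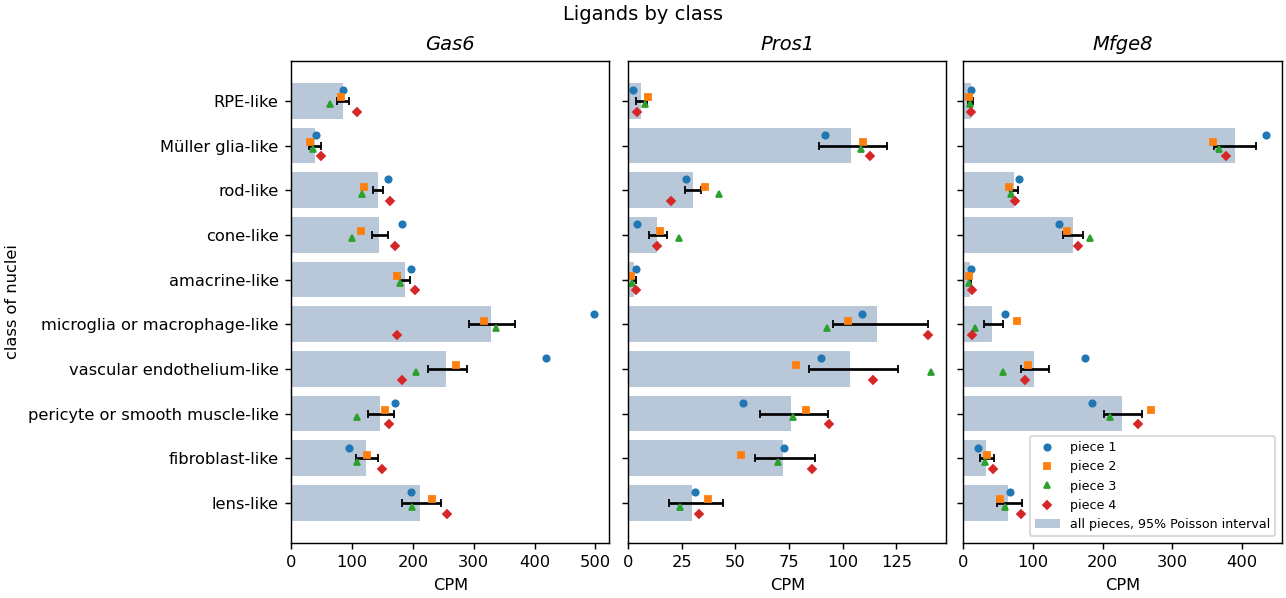
Levels of the ligands Gas6, Pros1 and Mfge8 in CPM (horizontal axes, each on its own scale) in 10 classes; bars are all pieces pooled with exact 95% Poisson intervals, and symbols are the 4 pieces. RPE-like nuclei stood at 85.3 CPM of Gas6, 5.76 CPM of Pros1 and 10.1 CPM of Mfge8, each below rod-like nuclei.

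Cd36, known as a receptor for oxidised lipids and fatty acids, was nearly absent from RPE-like nuclei, with 7 UMIs (1.92 CPM, 0.772 to 3.95). Rod-like nuclei had 9 UMIs (1.08 CPM). Vascular endothelium-like nuclei at 409 CPM (370.1 to 451) and adipocyte-like nuclei at 358 CPM (308 to 414) overlapped, and skeletal muscle-like nuclei at 180.3 CPM overlapped macrophage-like nuclei at 148 CPM. A UMI was found in 26.9% of vascular endothelium-like nuclei, against 0.153% of rod-like nuclei, and in 17.2 and 0.0532% after thinning.

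The endothelial level came almost wholly from cluster 13. This cluster (212 nuclei), led by Cd300lg and Cd36, held 1278 CPM (1154 to 1411), and cluster 19 (368 nuclei), led by Vwf and Plvap, held 16.2 CPM (8.09 to 29.0). Cd36 was left out of the genes used for clustering. Cluster 13 had 11, 63, 47 and 91 nuclei in pieces 1 to 4, and Cd36 in vascular endothelium-like nuclei was 63.5, 454, 247 and 607 CPM. Adipocyte-like nuclei led in pieces 1 and 3, at 430.1 and 328 CPM.

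Tub, the gene disrupted in the tubby mouse and described as a bridge between MerTK and its cargo, was a photoreceptor transcript here. Rod-like nuclei held 1377 CPM (1352 to 1402) and cone-like nuclei 925 CPM (892 to 959), and ganglion cell-like nuclei followed at 147 CPM (134 to 161). In pieces 1 to 4 rod-like nuclei held 1325, 1408, 1417 and 1366 CPM, and cone-like nuclei 913, 877, 913.4 and 989 CPM, without overlap between the classes. The share with a UMI was 70.8% in rod-like and 70.0% in cone-like nuclei, against 5.79% in fibroblast-like nuclei (median 1450 UMIs). After thinning these were 46.4, 25.4 and 3.28%. By level, thinning gave 1361 CPM for the rod-like class and 614 CPM (531 to 707) for the cone-like class, a wider gap than without thinning.

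RPE-like nuclei were next to last for Tub, with 29.9 CPM (24.5 to 36.0). Tub overlaps Ric3 in the annotation, and Ric3 stood at 60.0 CPM in rod-like and 68.9 CPM in cone-like nuclei, and at no more than 77.1 CPM in any class.

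Counted over the section, RPE-like nuclei held 42.3% of the Mertk, 46.95% of the Tyro3 and 50.5% of the Itgav UMIs of all kept nuclei, although they made up 3.91% of nuclei. Macrophage-like nuclei held 12.7% of the Mertk UMIs and Müller glia-like nuclei 10.4%. For the ligands the sources were wider. Of Gas6 UMIs, 28.0% lay in amacrine-like and 16.3% in rod-like nuclei. Of Pros1 UMIs, 19.3% lay in rod-like and 13.2% in Müller glia-like nuclei. Of Mfge8 UMIs, 20.6% lay in Müller glia-like, 19.2% in rod-like and 16.1% in cone-like nuclei. Skeletal muscle-like nuclei held 42.1% of Cd36, fibroblast-like nuclei 49.9% of Axl and rod-like nuclei 63.6% of Tub UMIs. The unnamed clusters together held 20.8% of Axl, 17.3% of Pros1, 16.5% of Mfge8 and 11.4% of Mertk UMIs. For the other genes they held from 2.49% (Cd36) to 18.7% (Itgb5). All these shares depend on how many nuclei of each class were recovered.

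**Figure D5:**
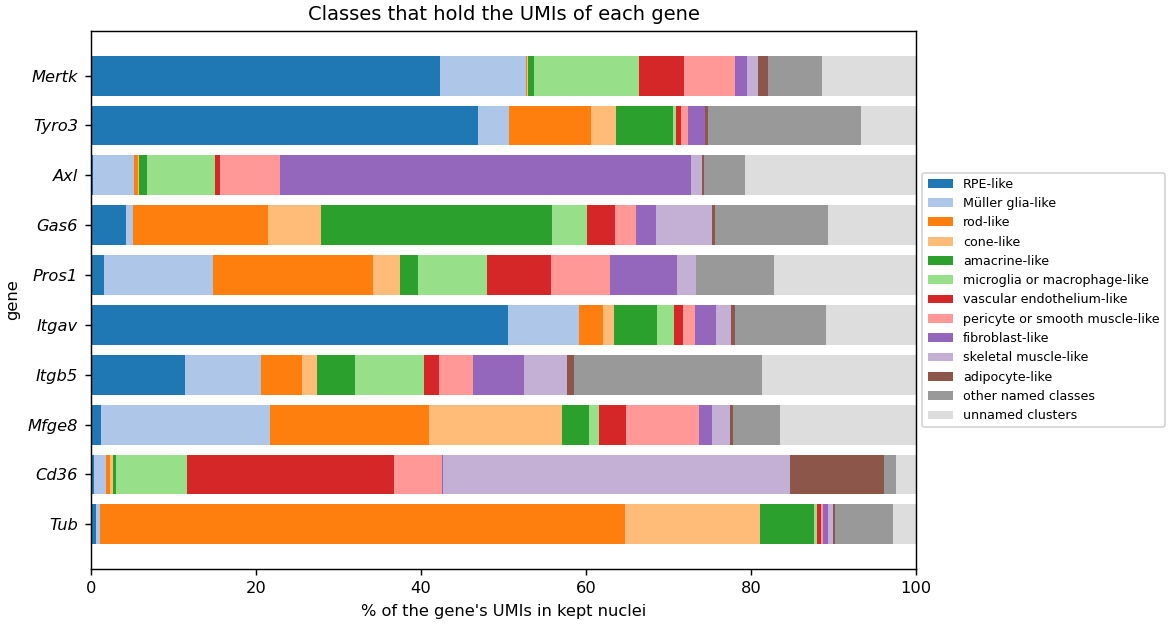
Share of the UMIs of each gene that lay in each class of nuclei (horizontal axis, % of the gene's UMIs in kept nuclei), with the remaining named classes and the unnamed clusters in grey. RPE-like nuclei held 42.3% of Mertk, 46.95% of Tyro3 and 50.5% of Itgav UMIs, and rod-like nuclei held 63.6% of Tub UMIs.

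The nuclei close to the RPE gave a narrower view of the ligand sources. Among the 20 nearest nuclei of each RPE-like nucleus were 4338 nuclei that were not RPE-like, of which rod-like nuclei made up 48.7% and cone-like nuclei 8.46%. Of the 904 Mfge8 UMIs in these nuclei, cone-like nuclei held 32.1% (29.0 to 35.2%) and rod-like nuclei 25.3% (22.5 to 28.3%). Pericyte or smooth muscle-like nuclei held 10.3% and Müller glia-like nuclei 9.85%. Of 1587 Gas6 UMIs, rod-like nuclei held 28.0% and cone-like nuclei 15.9%. Of 423 Pros1 UMIs, rod-like nuclei held 25.8%. Pericyte or smooth muscle-like nuclei held 12.3% of these, vascular endothelium-like nuclei 12.1%, the unnamed cluster 6 12.1% and macrophage-like nuclei 6.15%. Rod-like nuclei near the RPE held Gas6 at 136 CPM (124 to 149), against 146 CPM (136 to 157) in other rod-like nuclei, with overlapping intervals. Tub in cone-like nuclei was lower near the RPE, at 869.8 CPM (827 to 914), against 995 CPM (944 to 1049) in other cone-like nuclei. Nearness is of nuclei, and photoreceptor outer segments hold none.

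Across the 18 classes the profiles of Mertk and Itgav were the most alike of any pair among the 10 genes, with a Pearson correlation of log2(CPM + 1) of 0.739. Mertk and Tub were the most opposed pair, at -0.622, and the integrin subunits Itgav and Itgb5 stood at 0.621. The classes share 1 library and differ in depth, so these values are a description. Of 15161 genes with at least 100 UMIs, those most like Mertk were Acsf2 (0.946), Snx33 (0.936) and Apoe (0.932), and those most like Itgav were Ezr (0.863), Itgb8 (0.859) and Lrp10 (0.845). For Tyro3 they were Abhd13 (0.807), Cgrrf1 and Maea, for Axl S1pr2 (0.947), Irak3 and Rnase4, and for Tub Ttll11 (0.955), Pitpnm3 and Vopp1. For Gas6 they were Rtraf (0.800), Sec14l1 and Nifk, for Pros1 Tmpo (0.897), Ctbs and Pxn, and for Itgb5 Vim (0.871) and Tgif1. For Mfge8 they were Cnksr3 (0.809), Phactr4 and Lnx2, and for Cd36 Lrg1 (0.863), Cd300lg and Sh3tc1.

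Other genes of the pathway were taken from 7 lists, chosen with earlier results of these data known. The lists held 59 genes, all of them measured. Of these, 10 were class-high (16.9%), beside 10.3% of all genes tested, 5 were led by RPE-like nuclei (8.47%), beside 4.61%, and 15 by macrophage-like nuclei, beside 10.1%. A gene that is not class-high may still differ between classes. Among 6 other ligands, Thbs1, the gene of thrombospondin-1, a secreted protein that binds Cd36 and Cd47, was class-high in RPE-like nuclei at 1129.7 CPM (1095 to 1165), against 135 CPM in fibroblast-like nuclei. Among 8 genes of the ingestion cytoskeleton and phagosome transport, 4 were class-high. Ezr, whose product ezrin anchors the actin of the apical microvilli, stood at 1115 CPM in RPE-like nuclei against 335 CPM in surface epithelium-like nuclei. Myrip, which links Rab27a to myosin VIIa, stood at 1497 CPM in RPE-like nuclei against 357 CPM in vascular endothelium-like nuclei.

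The motor gene Myo7a was highest in melanocyte-like nuclei at 874 CPM, and RPE-like nuclei followed at 304 CPM. Anxa2 was highest in surface epithelium-like nuclei at 1424 CPM, against 161 CPM in fibroblast-like nuclei. Of 11 other recognition receptors, 3 were class-high, none of them in RPE-like nuclei. They were Timd4, a phosphatidylserine receptor, at 39.4 CPM in macrophage-like nuclei (37 UMIs, with 1 UMI in the next class), and Adgrb1 at 3775 CPM and Cd47 at 752 CPM in horizontal-like nuclei. The next classes stood at 288 CPM for Adgrb1 (amacrine-like) and 253 CPM for Cd47 (macrophage-like).

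Engulfment signalling had 12 genes, of which Vav1 (270.2 CPM) and Plcg2 (438 CPM) were class-high, both in macrophage-like nuclei. The 13 genes of phagosome maturation and LC3-associated phagocytosis, the 6 of phosphatidylserine exposure and the 3 of receptor shedding had no class-high member. Named after their values were seen, Ctsd, the lysosomal protease cathepsin D, stood at 1891 CPM in RPE-like nuclei, against 1101 CPM in macrophage-like nuclei. Also named so, Atp8a2, a phospholipid flippase, stood at 2565 CPM in rod-like and 63.1 CPM in RPE-like nuclei. Tulp1 and Vtn were named after their values were seen as well. Tulp1, a relative of Tub, reached 1427 CPM among cone-like nuclei and 33.4 CPM among RPE-like nuclei. Vtn, the gene of vitronectin, a ligand of alpha-v integrins, reached 379 CPM among cone-like nuclei and 25.2 CPM among RPE-like nuclei, and was highest in pericyte or smooth muscle-like nuclei at 479 CPM.

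In RefSeq's annotation of GRCm38.p6 all 10 are protein-coding genes. Mertk (ENSMUSG00000014361) lies at chr2:128698915-128803162, Tyro3 (ENSMUSG00000027298) at chr2:119797740-119818104, Itgav (ENSMUSG00000027087) at chr2:83722303-83806917 and Axl (ENSMUSG00000002602) at chr7:25756500-25788924. Gas6 (ENSMUSG00000031451) lies at chr8:13465374-13494535, Pros1 (ENSMUSG00000022912) at chr16:62854307-62929346 and Itgb5 (ENSMUSG00000022817) at chr16:33829665-33949338. Mfge8 (ENSMUSG00000030605) lies at chr7:79133768-79149060, Tub (ENSMUSG00000031028) at chr7:109010880-109034459 and Cd36 (ENSMUSG00000002944) at chr5:17781690-17888959.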

How the data were processed

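Single nuclei of mouse retina were measured with SeekSpace in 1 expression library. The authors deposited UMI counts per gene and barcode with none of their values normalized, and, per the file headers, X and Y positions on the chip, whose unit of length is not stated. The submitters' processing notes name the build mm10 and the tools Seurat 4.1.1, STAR and fastp. Their roles, the use of strand and intron counting are not given in the sources used.

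Nuclei with at least 200 genes and under 10% mitochondrial UMIs were kept. The first filter failed 328 barcodes and the second 97, with some barcodes failing both. Counts were scaled to 10000 per nucleus, log-transformed and clustered with scanpy 1.11.5 (2000 variable genes, 30 components, 15 neighbours, Leiden resolution 1), leaving 15 genes of the pathway lists out of the variable genes. Of the 37 clusters, 33 were named from marker lists, with a score of at least 0.33, a margin of 0.12 and at least 3 markers. These thresholds were set after the clusters were seen. Scrublet marked 0 nuclei as doublets, so it did not work here and none was removed. Tissue pieces came from DBSCAN on the positions.

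Levels (CPM) are pooled counts of a class per 1e6 UMIs, with exact 95% Poisson intervals, and shares have exact Clopper-Pearson intervals. Median depth by class ran from 1058 UMIs (rod-like) to 8149.5 UMIs (ganglion cell-like). With 1 library no test was run. The counting rule was tested on simulated data. The genes and lists were chosen with earlier results of these data known. The genes named are all 10 members, the 3 genes with the most similar class profile for each (1 is not reported here), and up to 4 class-high genes per pathway list. Ctsd, Atp8a2, Tulp1 and Vtn fall outside this rule. Promoter windows and positions are RefSeq's.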

Additional observations from a re-analysis of the deposited data

How the results depend on the processing

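Of the 10 genes, 3 were class-high in the analysis as reported. The count was 1 (Axl) with each nucleus thinned to 500 UMIs, 1 with a ratio of bounds of at least 3, and 1 without piece 4. It was 2 at resolution 2, with the mean of the levels of single nuclei, without the 5% of nuclei of highest Scrublet score, and without piece 2, with Tyro3 lost each time, and 3 under every other alternative run. Thinning leaves fewer UMIs and so wider intervals. With a ratio of at least 3, Tyro3 and Itgav dropped out because their ratios of bounds were 2.03 and 2.35. The cause of the remaining changes was not tested. Tyro3 and Itgav were the 2 genes led by RPE-like nuclei under every alternative run.

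Over 124 levels of a gene in its leading class, recomputed under the other settings chosen first, 94 stayed within the reported 95% interval and 30 moved out of it, and 120 kept the leading class. The other 4 were Cd36, led by adipocyte-like nuclei at resolution 2 and without piece 4, Gas6, led by lens-like nuclei with the pathway genes kept in clustering, and Pros1, led by vascular endothelium-like nuclei by the mean of single nuclei. The 29 from alternatives added later are left out, since most of those cannot change that level. Mertk in macrophage-like nuclei ranged from 566 to 807 CPM, Itgav in RPE-like nuclei from 751 to 1100.6 CPM and Cd36 in vascular endothelium-like nuclei from 282 to 531 CPM. Vascular endothelium was not named at resolution 0.5 or with 15 components, so Cd36 had no value there. Horizontal-like nuclei fell below the minimum of 50 nuclei per class when any piece was left out. Itgb5 therefore had no value in those runs, and whether its leading class was kept is not known. Leaving out a piece for the counts, leaving out the shallower RPE-like cluster, taking unnamed clusters as classes and a minimum of 100 nuclei were added after seeing the data. No paired analysis was possible because neither library has a group label.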
